A study of Mus musculus with 2 samples.

Results

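The insulin-like growth factor (IGF) genes described here are the ligands Igf1 and Igf2, the receptor Igf1r and the binding proteins Igfbp2 to Igfbp7, found in the table by gene symbol; the list of symbols was drawn up with earlier results of these data known. Of the 9 symbols, 6 had a row among the 14694 protein-coding genes of the table: Igf2, Igf1r, Igfbp3, Igfbp4, Igfbp6 and Igfbp7. The table used here has no row named Igf1, Igfbp2 or Igfbp5, and these genes were not analysed here. RNA labelled as coming from mouse lung fibroblasts was sequenced after removal of ribosomal RNA in 1 library labelled IR and 1 labelled NC, both numbered 4. The series concerns lung fibrosis after radiation and the effect of rosmarinic acid on the change of fibroblasts into myofibroblasts through epithelial exosomes. The labels spell out neither group name, and give no dose, time, genotype or age, nor whether the fibroblasts are primary cells or a line. The protocols describe centrifuging and filtering culture supernatants, and whether the RNA came from cells or vesicles is not stated. With 1 library per group no difference has a replicate check, and what follows sets 2 libraries side by side rather than 2 conditions.

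IGF1 and IGF2 are secreted hormones that signal through the receptor tyrosine kinase IGF1R, which recruits IRS docking proteins and activates the PI3K-AKT and ERK pathways to promote growth and survival. The IGF binding proteins hold most ligand outside the cell, prolonging its life and either withholding it from the receptor or releasing it when proteases cut them. Fibroblasts make several of these proteins, and in human lung fibrosis raised IGFBP3 and IGFBP5 have been described in diseased tissue.

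Counted reads totalled 35219511 in IR and 36084512 in NC. Of 11 fibroblast markers 8 had a row, none of them at 0, and they summed to 4273 CPM (read counts relative to the TMM-scaled library size) in IR and 5352 CPM in NC, most of it from Vim and Fn1. Dcn was scarce, at 30 and 7 reads, and no row was named Thy1, Lum or Tcf21, which were not analysed here. Of 8 epithelial markers 4 had a row and summed to 1.03 and 1.02 CPM. Of 5 endothelial markers 4 had a row and summed to 2.69 and 1.65 CPM. Of 6 macrophage and leukocyte markers 4 had a row and summed to 83.5 and 60.3 CPM, of which Cd68, a lysosomal protein, gave 83.2 and 60.1 CPM. Markers with no row were not analysed here. In bulk RNA, fewer cells of a type and less RNA per cell cannot be told apart.

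The members the results turn on are Igfbp4, Igfbp6, Igfbp7 and Igf1r, and the 250 bases before their RefSeq starts (GRCm38.p6, read 5′ to 3′ on the gene's strand) are shown to set their promoters side by side. Capitals mark TATAAA, the TATA box, and GGGCGG, the GC box bound by SP1 factors, each searched on both strands, so that a reverse match reads TTTATA or CCGCCC. The windows are chr11:99040994-99041243 on the plus strand for Igfbp4, chr15:102143936-102144185 on the plus strand for Igfbp6, chr5:77408046-77408295 on the minus strand for Igfbp7 and chr7:67952007-67952256 on the plus strand for Igf1r.
Igfbp4: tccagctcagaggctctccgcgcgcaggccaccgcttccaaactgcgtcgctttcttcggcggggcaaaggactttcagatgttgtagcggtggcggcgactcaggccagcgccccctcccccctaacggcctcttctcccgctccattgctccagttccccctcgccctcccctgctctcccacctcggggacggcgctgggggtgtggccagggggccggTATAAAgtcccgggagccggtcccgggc
Igfbp6: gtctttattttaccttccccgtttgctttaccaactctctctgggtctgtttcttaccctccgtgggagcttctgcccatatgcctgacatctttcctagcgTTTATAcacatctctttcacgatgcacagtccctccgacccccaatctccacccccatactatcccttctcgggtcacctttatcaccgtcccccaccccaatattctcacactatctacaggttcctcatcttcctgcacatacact
Igfbp7: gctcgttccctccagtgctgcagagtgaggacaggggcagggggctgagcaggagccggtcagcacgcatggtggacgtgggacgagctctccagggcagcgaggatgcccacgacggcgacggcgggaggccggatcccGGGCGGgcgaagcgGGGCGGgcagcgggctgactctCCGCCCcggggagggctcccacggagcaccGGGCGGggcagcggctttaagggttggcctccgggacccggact
Igf1r: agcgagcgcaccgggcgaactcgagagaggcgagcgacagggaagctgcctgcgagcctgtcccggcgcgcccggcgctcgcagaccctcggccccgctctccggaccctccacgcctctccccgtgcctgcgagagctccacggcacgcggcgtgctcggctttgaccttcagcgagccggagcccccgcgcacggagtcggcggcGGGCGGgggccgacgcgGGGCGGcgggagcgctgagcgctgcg

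Igfbp4 had 1 TATAAA, from 28 to 23 bases before the start, and no GGGCGG. Igfbp6 had 1 match to TATAAA on the reverse strand, 148 to 143 bases before the start. Igfbp7 had 4 GC boxes and Igf1r 2, and neither had TATAAA in this window. Among 32851 RefSeq windows of the same length, 12.4% held TATAAA and 32.7% held GGGCGG. The bases G and C made up 69.2% of the Igfbp4 window, 74.0% of that of Igfbp7 and 77.6% of that of Igf1r, but 49.6% of that of Igfbp6, against a median of 52.4% over all windows. The FOXO motif GTAAACA was in none of these 4 windows and in 3.17% of all windows, and the HIF core ACGTG was in that of Igfbp7 and in 16.6% of all. CCAAT was found in that of Igfbp6 (33.8% of all), and the AP-1 motif TGANTCA (6.75% of all) and the TEAD motif GGAATG (12.6% of all) in none of the 4. Distances are from the RefSeq start. For Igfbp6 and Igf1r that start lies upstream of the gene start given below, 102144362 and 67952827. The 4 windows are thus not at like positions relative to those gene starts. These matches are letters in a window and say nothing about binding.

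Among the 4 binding proteins with a row, Igfbp4 and Igfbp6 carried nearly all reads, and both were lower in the IR library. Igfbp4, whose product binds and withholds IGFs until the protease PAPP-A cuts it, had 19482 reads in IR and 31529 in NC. Its level was 558 CPM in IR, with a 95% Poisson interval of 551 to 566, against 865 CPM in NC, with one of 856 to 875, so the counting intervals lay far apart. As a log2 ratio, IR over NC, this was -0.63, with an exact 95% counting interval from -0.66 to -0.61 (Clopper-Pearson, from the split of the gene's reads between the libraries), a level 1.55-fold higher in NC. Such intervals cover counting error only. Igfbp4 lies on chromosome 11 at 99041244 to 99054392 (GRCm38, plus strand) and shares no exon base with another annotated gene, although 1.72% of its 50-base words occur in other transcripts.

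Igfbp6, whose product prefers IGF2 over IGF1, had 6980 reads in IR and 8416 in NC. Its level was 200.1 CPM (195 to 205) and 231 CPM (226 to 236), again with separate intervals but a smaller gap. The log2 ratio was -0.21 (-0.25 to -0.16), and 54.4% of the 10921 compared genes (50 or more reads in all) differed by as much or more in either direction. For Igfbp4 that share was 11.4%, and 3.07% among the 2184 genes in the highest 20% by mean level. Igfbp6 lies on chromosome 15 at 102144362 to 102149511 (plus strand), with a single annotated transcript of 1112 bases.

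Igfbp7, whose product has low affinity for IGFs and is found in basement membranes, went the other way at a far lower level. It had 154 reads in IR and 90 in NC, which is 4.41 CPM (3.74 to 5.17) and 2.47 CPM (1.99 to 3.04). Its log2 ratio of 0.82 was the highest of the compared members, with a wide interval from 0.45 to 1.23 that reaches past 2-fold. At this depth the size of the difference is poorly fixed: 19.8% of the genes in the lowest 20% by mean level differed by as much or more. Igfbp7 lies on chromosome 5 at 77349240 to 77408041 (minus strand), and 7.03% of its exon sequence overlaps exons of Polr2b on the opposite strand. Whether the counting took account of strand is not given in the sources used here.

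Igfbp3, which encodes the main carrier of IGFs in blood, had 1 read in IR and 2 in NC. Both values are under a floor of 3 reads per library (0.086 and 0.0824 CPM for IR and NC), so no ratio is given and no difference was detectable at this depth. Igfals, the acid-labile subunit that joins IGFBP3 and an IGF in the circulating complex, had 2 and 1 reads.

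**Figure D1:**
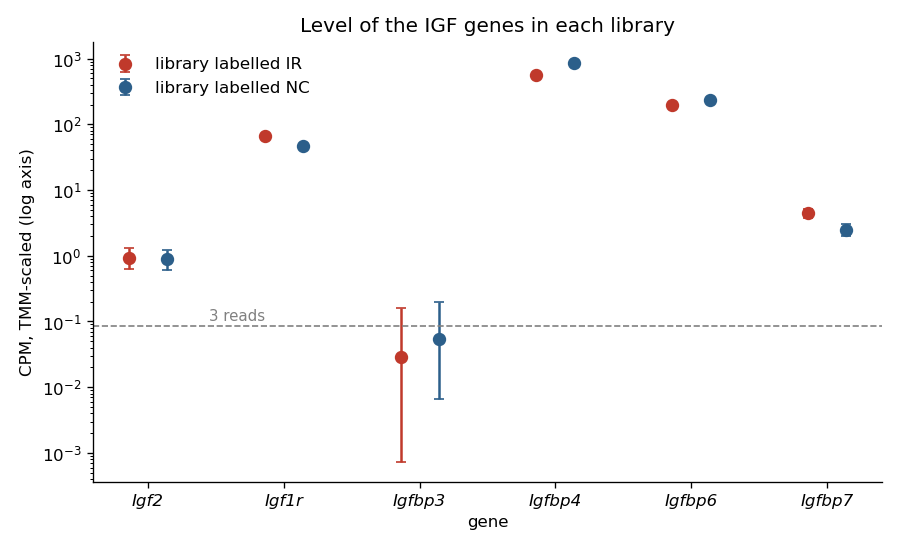
Level of each IGF gene with a row in the table, in CPM after TMM scaling on a log axis, in the IR (red) and NC (blue) libraries. Bars are 95% Poisson intervals, hidden by the points where narrow, and the dashed line marks 3 reads. Igfbp4 (558 and 865 CPM) and Igfbp6 (200.1 and 231 CPM) lie at the top, and Igfbp3 lies under the line in both libraries.

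Summed over Igfbp3, Igfbp4, Igfbp6 and Igfbp7, binding protein transcripts made up 763 CPM (754 to 772) of the IR library and 1099 CPM (1088 to 1109.9) of the NC library, a log2 ratio of -0.53 (-0.55 to -0.50). Igfbp4 gave 73.2% of these reads in IR (95% Clopper-Pearson interval 72.7 to 73.7) and 78.7% in NC (78.3 to 79.1). The share of Igfbp6 was 26.2% in IR (25.7 to 26.8) and 21.0% in NC (20.6 to 21.4). Igfbp7 took 0.579% and 0.225%. There were 2.79 Igfbp4 reads for each Igfbp6 read in IR and 3.75 in NC. This ratio within a library does not depend on the scaling between libraries, and it was lower in IR by a log2 difference of -0.42 (exact conditional interval -0.48 to -0.37). The make-up thus differed between the libraries by more than these counting intervals, while its order by reads was the same in both.

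Per length of exon the order of the top pair was less clear. Igfbp6, with 1112 bases of exon against 4416 for Igfbp4, reached 180 CPM per kb in IR and 208 CPM per kb in NC, and Igfbp4 126 and 196 CPM per kb. On this scale Igfbp6 ranked 344 of 14584 genes in IR and 276 in NC, and Igfbp4 ranked 500 and 295. With the longest annotated transcript as the length, Igfbp4 came to 146 CPM per kb in IR and 226 CPM per kb in NC, which puts it above Igfbp6 in NC. Far below came Igf1r, at 4.02 and 2.81 CPM per kb, and Igfbp7, at 3.65 and 2.04 CPM per kb. Igf2 followed at 0.160 and 0.153 CPM per kb, and Igfbp3 was last at 0.00916 and 0.0175 CPM per kb. With union exon length the order of Igf1r and Igfbp7 cannot be read in IR, where the interval of Igfbp7 includes the value of Igf1r. With the longest transcript Igf1r lay above Igfbp7, at 5.91 against 3.68 CPM per kb in IR and 4.14 against 2.06 CPM per kb in NC.

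**Figure D2:**
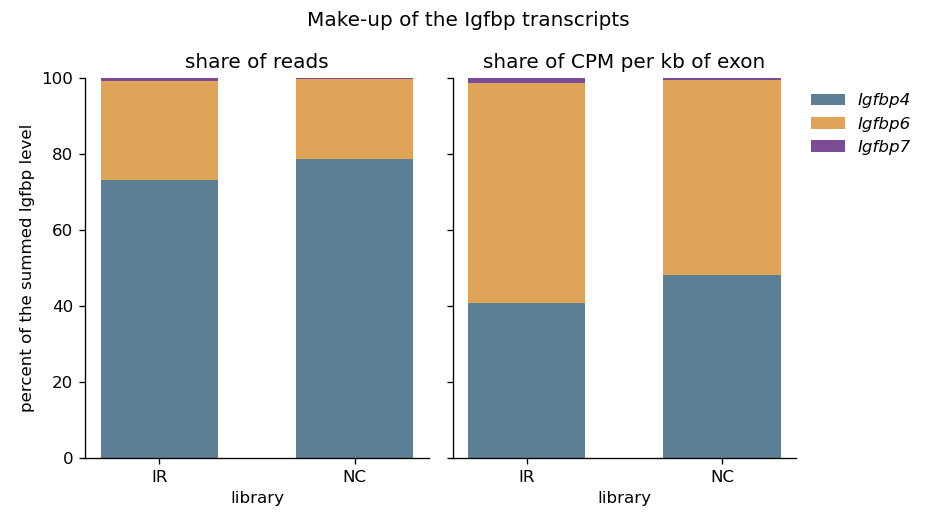
Share of Igfbp4, Igfbp6 and Igfbp7 in the summed level of the Igfbp genes with a row, in percent for each library. Shares are by reads (left) and by CPM per kb of exon (right). Igfbp4 makes up 73.2% (IR) and 78.7% (NC) of the reads, but 40.8% and 48.3% per kb of exon; Igfbp3 is too scarce to be drawn.

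Of the ligands, only Igf2 was measured here, and it was scarce. Igf2, the imprinted fetal growth factor, had 32 reads in each library, or 0.917 CPM (0.627 to 1.29) in IR and 0.878 CPM (0.601 to 1.24) in NC. The intervals overlap almost wholly, and the log2 ratio of 0.06 has an interval from -0.69 to 0.82, so no difference was detectable at this depth. Igf2 lies on chromosome 7 at 142650766 to 142666816 (minus strand). There 64.5% of its exon sequence overlaps other genes, most of it Gm49394 on the same strand, and 62.1% of its 50-base words occur in transcripts of other genes. Its reads may therefore be split or left out by the counting, and its level is uncertain.

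The receptor gene was higher in the IR library. Igf1r had 2352 reads in IR and 1719 in NC, or 67.4 CPM (64.7 to 70.2) and 47.2 CPM (45.0 to 49.5), with no overlap of the counting intervals. The log2 ratio was 0.51 (0.42 to 0.61), a level 1.43-fold higher in IR, and 17.3% of all compared genes differed by as much or more, or 7.78% of those in its own 20% range of mean level. Igf1r lies on chromosome 7 at 67952827 to 68233668 (plus strand), shares no exon base with another gene and has 16791 bases of exon. It belongs to the 10% of genes with the most exon sequence, whose median log2 ratio was -0.06, whereas the 10% with the least, which include Igfbp6 and Igfbp7, had a median of 0.09. The ratios of Igf1r and Igfbp6 were thus opposite in sign to the median of their length group, and that of Igfbp7 had the same sign. The part of exon length in these ratios was not tested.

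The 2 related receptors with enough reads to compare, Insr and Igf2r, were lower in IR, against the direction of Igf1r. Insr, the insulin receptor, which can pair with IGF1R in hybrid receptors, had 964 and 1280 reads (log2 ratio -0.35, interval -0.47 to -0.22). Igf2r, the mannose-6-phosphate receptor that takes up and degrades IGF2, had 7041 and 8599 reads (-0.23, interval -0.27 to -0.18). Both intervals lay below 0, as did those of 32.4% of all compared genes. The ratio of Igf2r was no further from 0 than the median absolute log2 ratio of all compared genes, 0.23. The orphan receptor Insrr had 1 and 3 reads, too few to compare. Igfbp1 and Ins2, on the same list, had no row of that name and were not analysed here. Within a library, Igf1r had 2.44 reads per Insr read in IR and 1.34 in NC, a log2 difference of 0.86 (0.71 to 1.01). Per kb of exon the level of Insr was 2.01 (IR) and 2.56 CPM (NC), below Igf1r in both. Igf1r stood at 0.334 reads per Igf2r read in IR and 0.200 in NC, a log2 difference of 0.74 (0.64 to 0.84), and at 0.121 and 0.0545 reads per Igfbp4 read, a log2 difference of 1.15 (1.05 to 1.24). Per Igfbp6 read it stood at 0.337 and 0.204, a log2 difference of 0.72 (0.62 to 0.82). The log2 ratio of Igfbp7, 0.82, is above the 0.51 of Igf1r. Its counting interval, 0.45 to 1.23, includes 0.51, so no direction is given for Igf1r against Igfbp7.

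No member met the rule of a 2-fold difference (absolute log2 ratio of at least 1, with a counting interval that excludes 0), which 3.42% of all compared genes met. At a fold of 1.5, Igfbp4 (lower) and Igfbp7 (higher) met it, that is 2 of the 5 compared members, against 13.0% of all genes, 6.09% higher and 6.90% lower. The counting interval excluded 0 for 4 of the 5, above it for Igf1r and Igfbp7 and below it for Igfbp4 and Igfbp6. So did that of 63.6% of all compared genes, 31.2% above and 32.4% below, so the count of members is no result by itself. The median of the 5 was 0.06, beside -0.0069 over all compared genes, and hides a range from -0.63 to 0.82.

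**Figure D3:**
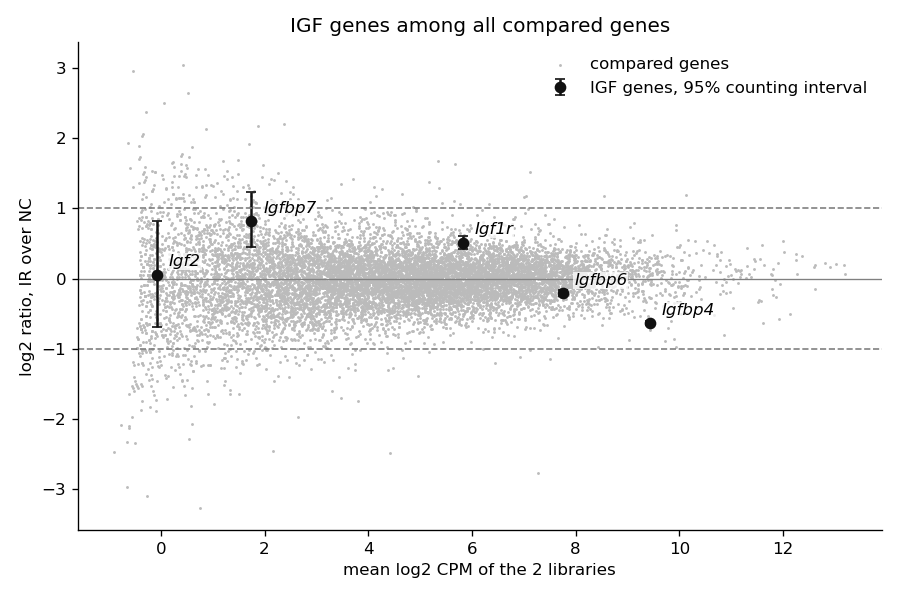
Log2 ratio of IR over NC against the mean log2 CPM of both libraries, for all 10921 compared genes (grey) and the 5 compared IGF genes (black, with 95% counting intervals); dashed lines mark 2-fold. Igfbp4 (-0.63) lies at the lower edge of the genes of like level, and Igf1r (0.51) and Igfbp7 (0.82) in the upper part, all within the lines.

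Msln, a surface protein of mesothelial cells, was lower in the IR library along with Igfbp4, at 97.6 and 197 CPM in IR and NC (log2 ratio -1.01). Of 5 mesothelial markers 3 had a row, and Msln gave nearly all of their summed level, 99.7 and 199 CPM. Krt19 had 67 and 49 reads and Upk3b 6 and 0. Of the 7 fibroblast markers with enough reads to compare, 6 were lower in IR, like Igfbp4: Col1a1 had a log2 ratio of -1.27, Fn1 of -0.80, Col1a2 of -0.73, Pdgfrb of -0.42, Pdgfra of -0.41 and Col3a1 of -0.23. Vim, at 0.27, was higher, and Dcn had 30 reads in IR and 7 in NC. Ratios below 0 were common over all compared genes, whose median was -0.0069, and 32.4% of them had a counting interval below 0. Their median absolute log2 ratio was 0.23, and Col3a1 was no further from 0 than that. The count of lower markers is thus no result by itself. The part of these cell types in the level of Igfbp4 was not tested. The smooth muscle and pericyte markers, all 6 with a row, summed to 27.1 and 22.3 CPM. Their log2 ratios were 0.85 for Acta2 (67 and 38 reads), 0.73 for Cspg4, 0.02 for Cnn1 and -0.12 for Des. Myh11 and Rgs5 had too few reads to compare.

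Genes that act on the binding proteins were measured next to them. Pappa, the protease that cuts IGFBP4, had 2 and 7 reads, and Pappa2, which cuts IGFBP5, 12 and 6, both under the 50 reads needed for comparison and chosen after their values were seen. Stc1 and Stc2, the stanniocalcins that inhibit PAPP-A, were higher in IR, at log2 ratios of 0.52 (138 and 100 reads, interval 0.15 to 0.91) and 0.23 (1805 and 1605 reads, interval 0.13 to 0.33). Htra1, a serine protease that can cut binding proteins, was lower, with 488 and 796 reads (-0.64, interval -0.81 to -0.48). Plat, the tissue plasminogen activator, had a ratio of 0.26 and the lysosomal protease Ctsd one of -0.27. The metalloprotease Adam9 had one of 0.03, with an interval from -0.07 to 0.12 that includes 0. Of the exon sequence of Ctsd, 34.4% lies in other genes, which makes its value uncertain. Of the 7 genes compared in this list of 11, 3 had an interval above 0 and 2 below it, against 31.2% and 32.4% of all compared genes, and the median was 0.06.

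Genes for proteins with an amino-terminal domain like that of the binding proteins included some with large differences. Of 9 compared genes, 3 were at least 2-fold higher in IR, against 1.60% of all genes, and none was 2-fold lower, against 1.82%. These were the matricellular CCN genes Ctgf (3147 and 1054 reads, 1.64), Wisp1 (47 and 15 reads, 1.58, interval 0.85 to 2.66) and Cyr61 (19525 and 9060 reads, 1.17). Wisp1 reached the 50 reads needed for comparison through its 47 reads in IR, so its place among the 3 partly follows from the filter. Exons of another gene cover 23.2% of those of Ctgf, so its reads are uncertain. The lowest were Htra3 (29 and 51 reads, -0.71, interval -1.46 to -0.07), Htra1, and Kazald1 (204 and 261 reads, -0.29). With 3 genes far above 0 and 5 of 9 below it, the median was -0.14. In reads, Cyr61 was close to Igfbp4 in IR (19525 and 19482), but far below it in NC (9060 and 31529). Per kb of exon, Cyr61 lay above Igfbp4 in IR (277 and 126 CPM) and below it in NC (123 and 196 CPM).

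The mRNA-binding proteins named for Igf2 were all present. Igf2bp1, which binds and stabilises target mRNAs, had 3137 and 2353 reads (log2 ratio 0.48, interval 0.40 to 0.56), Igf2bp2 3623 and 3532 (0.10, interval 0.03 to 0.17) and Igf2bp3 59 and 72 (-0.22, interval -0.75 to 0.29). The interval was above 0 for 2 of the 3 and below it for none (31.2% and 32.4% of all genes), with a median of 0.10. Igf2bp3 shares 18.7% of its exon sequence with Malsu1 on the opposite strand and is uncertain. Per kb of exon, Igf2bp1 (9.29 and 6.67 CPM) and Igf2bp2 (14.0 and 13.1 CPM) lay above Igf2 in both libraries.

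Downstream of the receptor, genes differed in both directions. Of 14 docking and adaptor genes, 4 had an interval above 0 and 4 below it (31.2% and 32.4% of all genes), with a median of -0.05. Irs2, a docking protein through which IGF1R reaches PI3K, had 594 and 837 reads (-0.43, interval -0.59 to -0.28). Ptpn11, the phosphatase SHP2, had 2515 and 4272 reads (-0.70, interval -0.77 to -0.63), and Sos2, an exchange factor for RAS, a ratio of -0.39. The highest were Ptpn1, a phosphatase that acts on the receptors (0.25), the adaptor Grb14 (0.19) and the scaffold Rack1 (0.17). Among 22 genes of PI3K, AKT and mTOR signalling, 3 had an interval above 0 and 6 below it (again beside 31.2% and 32.4%), with a median of -0.06. Rictor (0.48, from 105 and 78 reads), Pik3r1 (0.40) and Pik3r3 (0.31, with 24.3% of its exons in another gene) were highest, and Rptor (-0.29), Tsc1 (-0.41) and the AKT phosphatase Phlpp1 (-0.68) lowest. Of the 15 compared FOXO factors and FOXO targets, a group whose activity AKT signalling restrains and which also holds Insr and Irs2, 3 had an interval above 0 and 7 below it (beside 31.2% and 32.4%), with a median of -0.08. Bcl6 (0.44), Sesn3 (0.39) and Cited2 (0.34) were highest, and Irs2, Foxo6 (-0.53) and Klf15 (-0.84) lowest. In the growth hormone axis, which controls Igf1 in liver, 2 of 8 genes had an interval above 0 and 2 below it (beside 31.2% and 32.4%), and the median was 0.0031, from Ghr, the growth hormone receptor (0.42), Socs1 (0.26) and Stat5b (0.08) to Socs2 (-0.09), Stat5a (-0.17) and Socs3 (-0.52). Among the genes named from these 4 lists, the counting intervals of Pik3r3 (-0.11 to 0.73), Stat5b (-0.04 to 0.20) and Socs2 (-0.56 to 0.39) include 0. None of these 4 lists had a gene with a 2-fold difference, which 3.42% of all compared genes had.

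**Figure D4:**
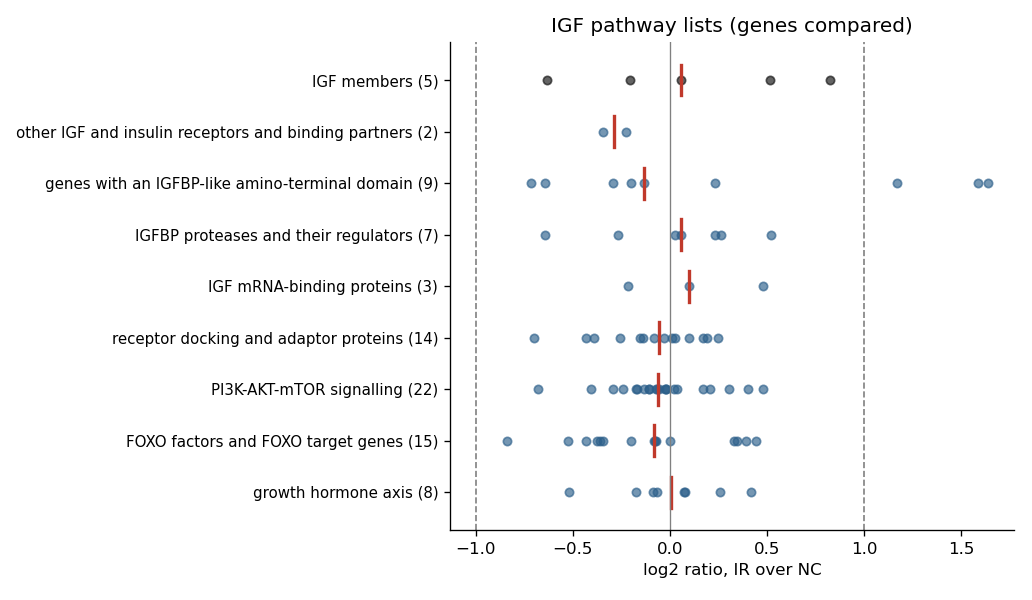
Log2 ratio of IR over NC for each compared gene of the IGF genes (black) and of the other lists (blue), with the number compared in brackets, red bars at the medians and dashed lines at 2-fold. The 3 points right of the 2-fold line are Ctgf, Wisp1 and Cyr61; the IGF genes run from -0.63 to 0.82.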

How the data were processed

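Per the submitters' processing notes, reads were handled with HISAT2, cutadapt 1.9.3, edgeR and HTSeq 0.9.1 on build mm10; the annotation release and strand setting are not given in the sources used here. The deposited values used are raw read counts per gene, per the file headers; a further 2 value columns were not used. Gene positions and exon lengths came from GENCODE vM21 (GRCm38), which held 14584 of 14694 gene IDs (99.3%), and promoter windows from RefSeq (GRCm38.p6).

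Library sizes were multiplied by TMM factors (0.991 for IR, 1.01 for NC) from edgeR 4.0.16 under R 4.3.3. Log2 ratios used log2 CPM with a prior count of 2, for genes with at least 50 reads over both libraries. No test or p-value was possible with 1 library per group. Intervals and floors cover counting error only, not the spread between samples. PCR copies of a molecule are counted separately, which can make the intervals too narrow. The procedure was tested on simulated data. Alternatives were other scalings (DESeq2 1.42.0 among them), prior counts, filters, fold rules and lengths.

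All 9 listed genes are named, and from each other list all members with a row where it had at most 6, otherwise the 3 highest and 3 lowest; others are said to be chosen after their values were seen or stand as markers. Members and lists were chosen with earlier results of these data known.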

Additional observations from a re-analysis of the deposited data

How the results depend on the processing

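The log2 ratios of Igf1r, Igfbp4, Igfbp6 and Igfbp7 kept their sign under every scaling, prior count, filter, thinning and centring run. That of Igf2 stayed above 0, but it had 32 reads in each library. Its counting interval, -0.69 to 0.82, includes 0, so the sign gives no direction. With 64 reads in all, Igf2 dropped out under the filter of 200 reads. Igf1r lay between 0.49 and 0.58, Igfbp7 between 0.74 and 0.85 and Igf2 between 0.03 and 0.11, inside their counting intervals. Igfbp4 moved past its narrow interval to -0.66 with total counts, -0.67 when centred on the trend over expression and -0.61 when centred on that over exon length, the last added after the data were seen; that centring also took Igfbp6 to -0.30. The number of members called was 0 under all settings but the fold rule of 1.5, which gave 2. Per kb of exon, the share of Igfbp4 was 40.8% in IR and 48.3% in NC, that of Igfbp6 58.0% and 51.2%, and that of Igfbp7 1.18% and 0.504%. With the longest transcript as length, Igf1r came to 5.91 and 4.14 CPM per kb and Igfbp4 to 146 and 226 CPM per kb in IR and NC. The medians of the growth hormone list (-0.024 to 0.073) and of the genes with an IGFBP-like domain (-0.16 to 0.048) changed sign among the alternatives. No paired analysis was possible because each group has 1 library. Igfbp3 is under the floor at this depth, and Igf2 has few reads and overlaps other genes.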
